A study of Mus musculus with 20 samples.

Results

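In Treg cells that lack Bcl11b, 1943 Foxp3-bound regions were listed that appear nowhere else in the study. A region was counted when its chromosome, start and end stood in the list of Foxp3 regions called specific to Bcl11b-deficient Treg cells (against wild-type Treg cells) and in none of the other lists. These regions, called Bcl11b-KO-only here, are 1943 of the 22081 distinct regions in the study's 12 lists. The rule rests on the authors' calls, so membership itself is a description and was not tested.

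The study used chromatin immunoprecipitation with sequencing (ChIP-seq), in which an antibody pulls down a protein with the DNA it is bound to, on Foxp3 and Bcl11b in mouse T cells, with 12 ChIP and 8 input libraries in 9 groups. The wild-type Foxp3 group had 2 libraries from C57BL/6 mice with the Foxp3-IRES-YFP-Cre allele, and the Bcl11b-KO Foxp3 group had 2 from C57BL/6 mice with that allele and Bcl11b f/f. In both, CD4+YFP+ cells were sorted from draining lymph nodes and spleen and then fixed, and no treatment is named. Both groups therefore carry the YFP-Cre allele, in which the Foxp3 locus drives Cre, so deletion follows Foxp3 expression and both the reporter and the deletion mark cells that have switched Foxp3 on. Age is not given in the labels used here, and the labels do not say whether the 2 libraries of a group came from separate animals. Bcl11b ChIP lists of wild-type Treg, wild-type Tn and KIKO cells (names as in the labels) served to apply the rule and to measure the distance to Bcl11b regions.

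Foxp3 is the forkhead transcription factor that defines regulatory T (Treg) cells, which restrain other immune cells, and it binds mostly enhancers and promoters that are already open, together with partners such as Runx, Ets, NFAT and AP-1 family factors. Bcl11b is a zinc-finger factor needed for T-lineage commitment in the thymus, and in mature T cells it holds down genes of natural killer and other innate-like programmes. An AP-1 factor is a dimer of the Fos, Jun or Batf families that acts downstream of T-cell receptor and cytokine signals.

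In the comparison of wild-type with Bcl11b-KO Treg cells, 17690 distinct regions were listed, and 2311 of them (13.1%) were called KO-specific. The Bcl11b-KO-only regions are 11% of all regions of the comparison and 84.1% of the KO-specific ones. The other 368 KO-specific regions are also in at least 1 further list. Of these, 301 were listed for wild-type Foxp3 in the comparison with Bcl11b, and 173 for Bcl11b in some comparison. The classes that serve below for comparison, after leaving out 17 regions that fall in 2 classes, are 365 other KO-specific regions, 10550 common regions and 4815 WT-specific regions. The lists hold positions and no read counts, so the depth behind each region is unknown and no spread between replicates can be given. A test below compares the regions of 2 lists, not the conditions over animals.

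Sequence was read only in promoters, and only 106 of the regions (5.46%) overlap a promoter window, as defined below. The stretches of promoter covered are shown here for 8 genes chosen after their values were seen. They include 3 receptors shared by NK cells or type 1 T cells (Klrk1, Klrb1c and Il12rb2). The others are 2 genes of suppressive mediators (Fgl2 and Il12a), the NK adaptor Sh2d1b1, and 2 oxidative stress genes (Srxn1 and Osgin1). All 8 carry AP-1, Runx or STAT letters, which many other covered promoters lack, so they do not stand for the whole set. Each sequence is the part upstream of the start site that a Bcl11b-KO-only region overlaps, 5′ to 3′ on the strand of the gene. The sequences are from RefSeq on GRCm38.p6, whose coordinates are those of the mm10 build. Capitals mark AP-1 letters (TGANTCA) in Fgl2, Sh2d1b1, Srxn1 and Osgin1, Runx letters (TGTGGT) in Klrk1, Klrb1c and Il12a, and STAT letters (TTCNNNGAA) in Il12rb2 and Fgl2.
Klrk1 (chr6:129623865-129624114, minus strand): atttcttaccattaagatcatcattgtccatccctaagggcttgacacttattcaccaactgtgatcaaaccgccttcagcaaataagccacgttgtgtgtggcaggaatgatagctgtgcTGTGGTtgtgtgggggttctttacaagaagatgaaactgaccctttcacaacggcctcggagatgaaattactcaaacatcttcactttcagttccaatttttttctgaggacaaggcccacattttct
Klrb1c (chr6:128788642-128788776, minus strand): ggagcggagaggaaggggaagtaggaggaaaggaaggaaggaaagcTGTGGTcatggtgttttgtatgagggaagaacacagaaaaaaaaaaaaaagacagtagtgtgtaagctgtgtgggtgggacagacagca
Il12rb2 (chr6:67376189-67376378, minus strand): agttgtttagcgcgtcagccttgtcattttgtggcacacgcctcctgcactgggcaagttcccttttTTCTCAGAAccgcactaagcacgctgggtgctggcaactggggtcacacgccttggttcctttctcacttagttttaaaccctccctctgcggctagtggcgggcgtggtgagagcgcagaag
Fgl2 (chr5:21372556-21372672, plus strand): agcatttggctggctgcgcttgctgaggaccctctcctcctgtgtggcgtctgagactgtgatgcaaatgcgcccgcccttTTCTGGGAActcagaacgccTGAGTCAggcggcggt
Il12a (chr3:68691254-68691423, plus strand): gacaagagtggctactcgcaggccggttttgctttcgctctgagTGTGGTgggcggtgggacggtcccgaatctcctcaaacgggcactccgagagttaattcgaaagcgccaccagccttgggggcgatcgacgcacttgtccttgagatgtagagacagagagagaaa
Sh2d1b1 (chr1:170277068-170277264, plus strand): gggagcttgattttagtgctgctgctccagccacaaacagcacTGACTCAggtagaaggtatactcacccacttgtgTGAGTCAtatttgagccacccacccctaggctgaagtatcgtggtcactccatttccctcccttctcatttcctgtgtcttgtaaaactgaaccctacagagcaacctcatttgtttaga
Srxn1 (chr2:152105274-152105523, plus strand): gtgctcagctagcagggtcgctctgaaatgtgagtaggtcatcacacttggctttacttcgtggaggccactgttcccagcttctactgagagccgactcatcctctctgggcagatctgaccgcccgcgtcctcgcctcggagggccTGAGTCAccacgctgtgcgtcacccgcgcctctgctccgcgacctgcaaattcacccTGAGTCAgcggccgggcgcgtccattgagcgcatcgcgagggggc
Osgin1 (chr8:119436942-119437146, plus strand): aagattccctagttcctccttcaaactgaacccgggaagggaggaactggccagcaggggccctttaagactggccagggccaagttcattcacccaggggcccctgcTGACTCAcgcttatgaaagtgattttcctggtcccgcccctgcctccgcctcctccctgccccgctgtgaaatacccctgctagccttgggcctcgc
In Srxn1 and Sh2d1b1 the AP-1 letters stand at 2 places each. A match of letters is not a bound site.

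Promoters were the exception among the Bcl11b-KO-only regions, most of which lay away from gene starts. Within 1 kb of a start site lay 197 of the 1943 (10.1%, Wilson 95% interval 8.87 to 11.6), against 4590 of the 10550 common regions (43.5%) and 1846 of the 4815 WT-specific regions (38.3%). The odds ratio was 0.147 (95% interval 0.125 to 0.171) against common regions and 0.182 (0.154 to 0.213) against WT-specific regions, with adjusted p = 3.48e-198 and 1.28e-130 (two-sided Fisher's exact tests, Benjamini-Hochberg over the 27 tests made). Against the other KO-specific regions, of which 15.6% lay as near, the odds ratio was 0.610 (0.440 to 0.855, adjusted p = 0.00764, Fisher's exact test). Intervals cover counting error only, and neighbouring regions share genes, so these p-values may be too small. Start sites were known for 17492 of the 21900 protein-coding genes.

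The distance to the nearest start site had a median of 10.97 kb over the Bcl11b-KO-only regions (quartiles 4.33 and 19.9 kb). For the other KO-specific, common and WT-specific regions the medians were 10.2, 2.53 and 4.47 kb. Both KO-specific classes thus lay farther out at the median than the common and WT-specific regions. Of the Bcl11b-KO-only regions, 2.01% lay within 0.1 kb of a start site, against 20.1% of the common ones.

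**Figure D1:**
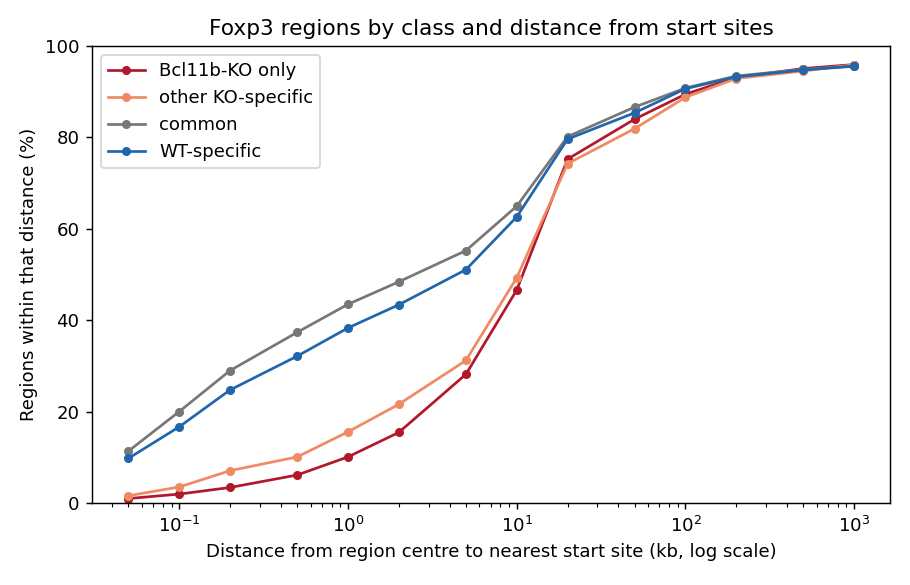
Share of regions in each class (y axis, percent) whose centre lies within a given distance of the nearest start site (x axis, kb, log scale). At 1 kb the Bcl11b-KO-only curve stands at 10.1% and the common curve at 43.5%, and the 4 curves meet beyond 100 kb.

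Gene ends, of either kind, gave the same order of the classes. Within 1 kb of either end of a protein-coding gene lay 256 Bcl11b-KO-only regions (13.2%, 11.7 to 14.8), 71 other KO-specific ones (19.5%), 5046 common ones (47.8%) and 2066 WT-specific ones (42.9%). Odds ratios were 0.166 (0.144 to 0.190) against common, 0.202 (0.174 to 0.233) against WT-specific and 0.629 (0.467 to 0.853) against the other KO-specific regions, with adjusted p = 1.19e-198, 3.30e-132 and 0.00588 (Fisher's exact tests). The last of these held neither at 0.5 kb (odds ratio 0.686, adjusted p = 0.0788) nor among regions of 276 bp (0.733, adjusted p = 0.377), and the same width ended the call for start sites (0.797, adjusted p = 0.556, Fisher's exact tests).

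The centre of the region lay inside a protein-coding gene for 1137 Bcl11b-KO-only regions (58.5%, 56.3 to 60.7), close to the 59.2%, 60.4% and 60.5% of the other KO-specific, common and WT-specific regions. No difference passed the test (adjusted p = 0.862, 0.209 and 0.209, Fisher's exact tests). The intervals of the odds ratios ran from 0.769 to 1.23, from 0.839 to 1.02 and from 0.826 to 1.03. The differences that passed the test were thus those in distance from gene starts and ends.

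**Figure D2:**
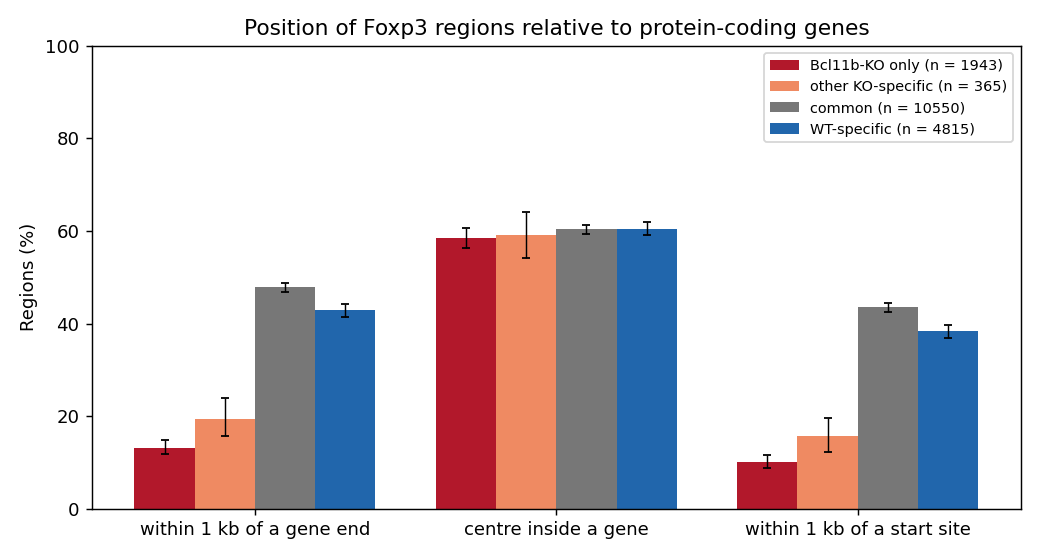
Share of regions (y axis, percent, bars from 0, error bars Wilson 95% intervals for counting error) within 1 kb of a gene end, with the centre inside a gene, and within 1 kb of a start site, by class. The Bcl11b-KO-only bars stand at 13.2%, 58.5% and 10.1%, below the common and WT-specific bars in the first and last groups and level with them in the middle one.

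Widths differed between the classes. How widths were set is not given in the sources used here, so a width is not read as a property of the binding. Of the Bcl11b-KO-only regions, 1892 (97.4%) were exactly 276 bp wide, and the remaining 51 were wider, up to 480 bp. That width was found in 24.7% of the other KO-specific, 30.1% of the common and 6.40% of the WT-specific regions, whose median was 220 bp. Among regions of 276 bp alone, 12.8% of the Bcl11b-KO-only, 42.9% of the common and 48.1% of the WT-specific ones lay within 1 kb of a gene end, so the order against these classes was kept. The wide members include regions inside Havcr2 (475 bp), which encodes the inhibitory receptor Tim-3, inside the phosphatase gene Ptpre (437 bp) and inside Ctla4 (390 bp).

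The Bcl11b-KO-only regions lay less often near a wild-type Foxp3 region than the other classes did, in shares that were not tested. The gap to the nearest wild-type Foxp3 region of any list had a median of 9.59 kb, against 6.54, 6.52 and 6.35 kb for the other KO-specific, common and WT-specific regions. Within 10 kb of one lay 989 regions (50.9%), against 63.3%, 59.3% and 59.4%, and within 1 kb 229 (11.8%), against 16.7%, 23.7% and 22.7%. The nearest Bcl11b region was farther off, at a median of 22.6 kb, with 600 regions (30.9%) within 10 kb. For the other KO-specific, common and WT-specific regions the medians were 14.2, 17.1 and 16.6 kb. Within 10 kb of a Bcl11b region lay 41.1%, 36.9% and 37.2% of them. These gaps depend on how many regions each set of lists holds. They are also set in part by the rule, which leaves out regions listed for wild-type Foxp3 or Bcl11b. Common and WT-specific regions are themselves wild-type Foxp3 regions. For them only identical coordinates were passed over, so the same site with other edges in another list counts as near. The gaps thus do not give a like comparison of the classes. No other list had a region within 500 bp for 1796 of the 1943.

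A Runx or AP-1 sequence was found more often in the promoters covered by Bcl11b-KO-only regions than in those covered by common or WT-specific regions. Only 106 of the regions (5.46%) overlap a promoter window of 300 bases (250 before the start site and 50 after it), against 35.2% of common and 29.5% of WT-specific regions, so this concerns a small part of the set; 87 of the 106 overlap a window of a protein-coding gene. Windows were taken once per gene and only where regions of a single class overlap them, which left 101 genes for the Bcl11b-KO-only, 4076 for the common and 1578 for the WT-specific regions. The AP-1 letters TGANTCA were in 20 of the 101 (19.8%), in 4.83% of the common and in 3.68% of the WT-specific windows. The odds ratios were 4.86 (2.76 to 8.20) and 6.46 (3.50 to 11.5), with adjusted p = 6.11e-07 and 3.74e-08 (Fisher's exact tests). All 27025 promoters held them in 7.91%. The 38 windows of the other KO-specific regions, a class left out of the motif tests, held the AP-1 letters in 5 (13.2%, 5.75 to 27.3). Counting only bases that lie inside the region (54 windows), the AP-1 odds ratio against common windows was 3.15 and no longer passed (adjusted p = 0.0607, Fisher's exact test).

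The Runx letters TGTGGT were in 30 of the 101 windows (29.7%), against 13.2% of common, 11.98% of WT-specific and 17.0% of all promoters. Runx1 and Runx3 are DNA-binding partners of Foxp3 and regulators of the CD8 and CD4 lineages. The odds ratios were 2.78 (1.73 to 4.36) and 3.10 (1.90 to 4.96), with adjusted p = 7.09e-05 and 1.74e-05 (Fisher's exact tests). With only bases inside the region they were 4.36 and 5.06 (adjusted p = 0.000128 and 5.18e-05, Fisher's exact tests). Windows of the other KO-specific regions, which were not tested, held the Runx letters in 8 of 38 (21.1%, 11.1 to 36.3). STAT letters, TTCNNNGAA, were in 13 windows (12.9%), against 7.11% of the common (odds ratio 1.93, adjusted p = 0.0928) and 6.02% of the WT-specific windows (2.30, adjusted p = 0.0237, Fisher's exact tests). All promoters held them in 8.37%, and 0 of the 38 other KO-specific windows did. With only bases inside the region the STAT odds ratio against common windows was 3.99 (adjusted p = 0.00757), and without windows that hold a GC box that against WT-specific windows was 2.54 (adjusted p = 0.0653, Fisher's exact tests).

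GC boxes (GGGCGG), a common element of housekeeping promoters, were fewer: 52 of the 101 windows (51.5%) against 68.4% and 68.1%, with odds ratios of 0.491 and 0.498 and adjusted p = 0.00153 and 0.00259 (Fisher's exact tests). All promoters held a GC box in 35.6%. The windows also differed in base composition, with a median GC content of 57.7% against 61.7% in both the common and the WT-specific windows and 52.7% over all promoters. Among windows without a GC box, AP-1 letters were in 20.4% and in 6.90% of the common ones (adjusted p = 0.00588), and Runx letters in 40.8% and 18.3% (adjusted p = 0.00104, Fisher's exact tests). The part of base composition in the other motif shares was not tested.

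The forkhead letters TGTTTAC, the core that Foxp3 itself recognises, were in 4 of the 101 windows (3.96%), in 3.16% of the common, 2.79% of the WT-specific and 3.58% of all promoters. Their odds ratio against common windows was 1.26 (0.332 to 3.42, adjusted p = 0.608, Fisher's exact test). The Ets (GGAAGT), T-box (GGTGTGA), E-box (CACGTG) and NF-kB letters passed the test against neither class. All motifs were searched on both strands. Matches of different motifs may overlap.

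**Figure D3:**
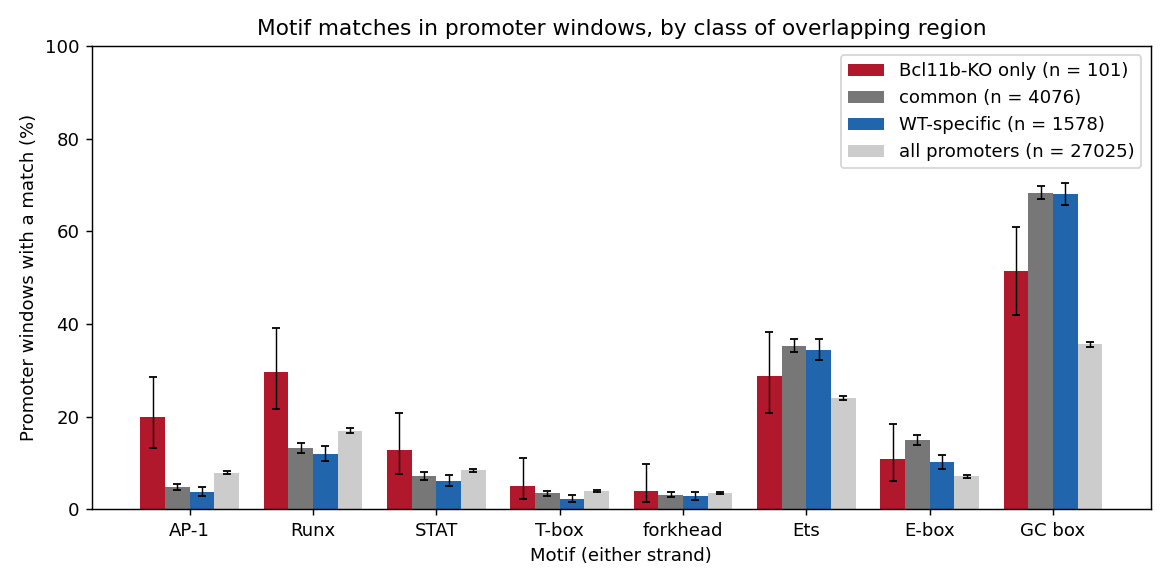
Share of promoter windows that hold each motif on either strand (y axis, percent, bars from 0, error bars Wilson 95% intervals), for windows overlapped by Bcl11b-KO-only, common or WT-specific regions and for all promoters; NF-kB letters, in 1 of the 101 windows, are not drawn. AP-1 at 19.8% and Runx at 29.7% stand above the other bars drawn, and the GC box at 51.5% below the common and WT-specific bars. Windows of the other KO-specific regions are not drawn.

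Each region was next given the protein-coding gene nearest to its centre, within 100 kb, as a name for the place and not as a shown target. Assigned this way, 1919 of the regions name 1571 genes, which is 16.5% of the 9543 genes with any region of the comparison. The other 24 had no gene in reach. Most of the genes, 1297, had 1 such region, 212 had 2, 51 had 3, 10 had 4 and 1 had 5. A common region was assigned to 919 of these genes and a WT-specific one to 431. In 514 (32.7%) of the genes, with 607 of the regions, no wild-type Foxp3 region of either comparison was assigned.

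Litaf (chr16:10959273-10993121), which encodes an endosomal membrane protein induced by bacterial lipopolysaccharide, had the 5 regions. Inside the gene lay 2, at 16.9 and 13.4 kb from the start site, and 3 beyond it, at -3.62, -8.78 and -21.4 kb (negative values are upstream). The nearest wild-type Foxp3 region to any of these 5 was 1.43 kb away, and the nearest Bcl11b region was 132 kb away. Litaf also had 2 common regions and no WT-specific one.

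Klrg1 (chr6:122270596-122282833), an inhibitory receptor of effector T cells, NK cells and terminally differentiated Treg cells, had 4 Bcl11b-KO-only regions beside 1 other KO-specific, 2 common and 1 WT-specific region. The 4 regions lay 0.234, 1.54, 2.18 and 11.2 kb outside the gene. Wild-type Foxp3 regions stood between 0.897 and 5.39 kb from them, whereas the nearest Bcl11b region was 46.4 kb off. The Klrg1 neighbourhood was thus bound by Foxp3 in wild-type cells as well, at other positions.

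Tnfsf8 (chr4:63831202-63861508) encodes CD30 ligand, a TNF family member of activated T cells. Of its 4 regions, 3 lay inside the gene, the nearest 0.993 kb from the start site, and the fourth lay at -9.54 kb. It also had 4 common regions. Ptpre (chr7:135537824-135686294), a receptor-type tyrosine phosphatase, had 4 regions inside the gene, at -4.72, -1.81, -0.584 and 1.70 kb from the nearest of its start sites, beside 3 common regions.

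Trp73 (chr4:154056249-154139875), which encodes the p53 relative p73, had 4 regions inside the gene and no other Foxp3 region. The nearest wild-type Foxp3 region was 23.3 kb from any of them and the nearest Bcl11b region 21.6 kb. Batf3 (chr1:191098414-191108943), a bZIP factor that pairs with Jun proteins, was alike in having 3 Bcl11b-KO-only regions and no other. They lay at -1.08, 4.46 and 13.0 kb from the start site, and the nearest wild-type Foxp3 region was 34.0 kb away.

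Cdc20b (chr13:113034975-113121019) had 4 regions whose nearest start site is that of the neighbouring gene Gzma, which encodes the protease granzyme A of cytotoxic cells. They lay at -1.11, -3.92, -19.6 and -34.1 kb from that start. Cdc20b also had 2 WT-specific regions. Gzmk, encoding a related protease in the same part of chromosome 13, had 2 regions at -2.53 and 10.5 kb and no other Foxp3 region.

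The 15 genes named for their counts pass over predicted genes, such as 2900026A02Rik with 4 regions and no wild-type Foxp3 region, and take the genes tied at 3 in the order of their symbols. The rest of the 15 also carried common regions. Counts of 4 were found at Arhgef3, a guanine nucleotide exchange factor (beside 7 common and 4 WT-specific regions), at Bfsp2, a lens filament protein (1 common), at Extl3, a heparan sulfate enzyme (1 common), and at Itm2c, a membrane protein (2 common). Counts of 3 were found at the actin-binding Ablim1, the GTPase regulators Abr and Acap2, and the autophagy enzyme Atg7.

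**Figure D4:**
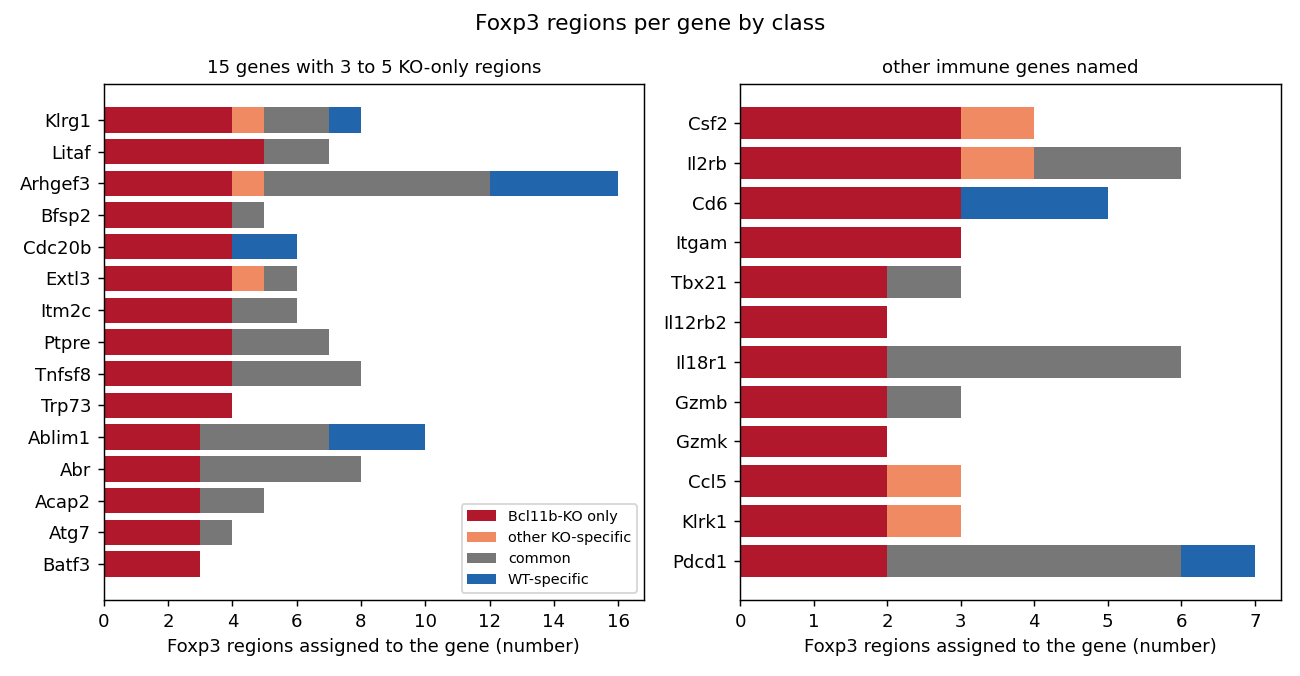
Number of Foxp3 regions assigned to each gene (x axis) by class (stacked colours), for 15 genes with 3 to 5 Bcl11b-KO-only regions, chosen by count with predicted genes passed over and ties taken by symbol (left), and for 12 immune genes picked from the named genes after their values were seen (right). Litaf has 5 Bcl11b-KO-only and 2 common regions, and Trp73, Batf3, Itgam, Il12rb2 and Gzmk hold no region of another class.

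Genes that define Treg cells had regions of this kind at about the general share. None of the Bcl11b-KO-only regions was assigned to Foxp3, Il2ra, the high-affinity interleukin-2 receptor chain, or Ikzf2, which encodes Helios. Foxp3 had 1 common region, Il2ra 7 common and 1 WT-specific, and Ikzf2 2 common and 4 WT-specific. Ctla4, an inhibitory receptor, had 1 Bcl11b-KO-only region, inside the gene and 1.36 kb from a wild-type Foxp3 region. It also had 2 common and 3 WT-specific regions. Ikzf4, encoding Eos, had 1 Bcl11b-KO-only region inside the gene, beside 1 common and 2 WT-specific regions. Over the 20 genes of the Treg signature list, all 20 with a region, 7 of 69 regions were Bcl11b-KO-only (10.1%, 5.0 to 19.5), near the 10.9% over all protein-coding genes: Il1rl1 and Itgae had 2 each and Capg, Ctla4 and Ikzf4 1 each. The gene lists were chosen with earlier results of these data known, they overlap, and their counts were not tested.

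Among the 18 genes of naive and T-lineage identity, 6 of 105 regions were Bcl11b-KO-only (5.71%, 2.64 to 11.9, an interval that holds the 10.9% over all genes), with 2 at Runx3 and 1 each at Bach2, Il7r, Klf2 and Runx1. Bcl11b itself (2 common and 2 WT-specific regions), Satb1, a chromatin organiser of developing T cells (5 common and 7 WT-specific), and Gata3, the Th2 factor (2 common and 1 WT-specific), had none.

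In the list of T helper regulators and cytokines, 17 of 65 regions were Bcl11b-KO-only (26.2%, 17.0 to 38.0), over 10 of its 24 genes. The 65 also include 3 other KO-specific, 35 common and 10 WT-specific regions. Bhlhe40, a repressor that supports cytokine production, had 3, at 0, 1.59 and 29.8 kb from the gene. Csf2 (chr11:54247270-54249899), the cytokine GM-CSF, had 3, at 0.357, 9.79 and 41.1 kb from its start site, and 1 other KO-specific region, but no common or WT-specific one. In the comparison with Bcl11b, 1 wild-type Foxp3 region was assigned to Csf2. Tbx21 (chr11:97098007-97115331), which encodes the Th1 factor T-bet, had 2 inside the gene at 2.72 and 11.02 kb from the start, and 1 common region. Il12rb2, the interleukin-12 receptor chain whose promoter is printed above, had 2, at -0.0525 and 8.92 kb from the start, with the nearest wild-type Foxp3 region 100 kb away. Il18r1 had 2 beside 4 common regions, and Batf, Il13, Il17a, Il21 and Il5 had 1 each. The Il17a region lay 6.16 kb from the gene. Ifng, the Th1 cytokine, had none, with 1 common and 2 WT-specific regions.

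In the list of CD8, NK and cytotoxic markers, 9 of 15 genes had any region and 10 of 19 regions were Bcl11b-KO-only (52.6%, 31.7 to 72.7, beside 10.9% over all genes). The 19 also include 4 other KO-specific, 4 common and 1 WT-specific region. Over all genes, 361 of 17552 regions were other KO-specific, so a high share was not particular to the Bcl11b-KO-only class. Ccl5, a chemokine of effector cells, Gzmk and Klrk1 had 2 each, and Fasl, Klrb1c, Klrc1 and Nkg7 1 each. Klrk1 encodes the activating receptor NKG2D, and its 2 regions lay at -0.127 and 1.20 kb from the start site. Of the 29 genes in the Klr receptor complex list, 11 had 16 Bcl11b-KO-only regions among 43 (37.2%, 24.4 to 52.1), 4 of them at Klrg1 and 2 each at Klrb1b and Klrk1. The 43 also include 3 other KO-specific, 15 common and 9 WT-specific regions.

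Markers of other cell types were looked at because a sorted population can hold a few of them. Of 12 myeloid markers 4 had a region, and 5 of those 8 regions were Bcl11b-KO-only (62.5%, 30.6 to 86.3, beside 10.9% over all genes). Itgam had 3 and Itgax 2, which encode integrin chains of myeloid and some activated lymphoid cells. The 8 also include 1 other KO-specific, 1 common and 1 WT-specific region. Of 12 B cell markers 5 had a region, with 2 of 6 Bcl11b-KO-only, both at the kinase gene Blk. That share was 33.3% (9.68 to 70.0, an interval that holds the 10.9%), and the 6 also include 1 other KO-specific, 2 common and 1 WT-specific region. The 8 remaining myeloid and 7 remaining B cell markers had no region, and neither did any of 12 neural genes. Binding lists show no RNA, so the sorted cells could not be checked by expression, and the part of other cells in the counts at cytotoxic, myeloid and B cell genes was not tested.

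In the list of suppressive mediators and inhibitory receptors, 14 of 63 regions were Bcl11b-KO-only (22.2%, 13.7 to 33.9), 4 of them at Klrg1. The 63 also include 5 other KO-specific, 30 common and 14 WT-specific regions. Gzmb, encoding granzyme B, had 2, at -12.4 and -16.0 kb from the start. Pdcd1, encoding PD-1, had 2 inside the gene beside 4 common and 1 WT-specific region. Single regions were assigned to Fgl2, Havcr2, Il10, Il12a, Lag3 and Tigit. The Il10 region lay 7.03 kb from the gene and 1.83 kb from a wild-type Foxp3 region. At Fgl2, a secreted mediator of Treg suppression, the region spans the start site and was the only one assigned to the gene, although a wild-type Foxp3 region lay 1.88 kb away.

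In the T-cell receptor signalling list, 15 of 104 regions (14.4%, 8.94 to 22.4) were Bcl11b-KO-only. Cd6, a scavenger receptor that tunes T-cell receptor signals, had 3 beside 2 WT-specific regions. Cd28, the costimulatory receptor, had 2. For interleukin-2 and STAT5 signalling the count was 10 of 65 (15.4%, 8.58 to 26.1): Il2rb, the receptor's beta chain, had 3, and Pim1 and Stat5b had 2 each. Of the Il2rb regions, 1 lay inside the gene and the others 0.486 and 1.40 kb outside it.

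Chemokine receptors and homing integrins had 10 of 62 regions (16.1%, 9.0 to 27.2), 2 of them at Ccr4 and 1 each at Ccr2, Ccr3, Ccr6, Cxcr3, Itga1, Itga2, Itga4 and Itgb7. Among AP-1 and other bZIP factors the count was 11 of 76 (14.5%, 8.28 to 24.1), with 3 at Batf3 and 2 at Nfil3. In the TNF and NF-kB list, 5 of 79 (6.33%, 2.73 to 14.0) were found at 2 of its 26 genes, Tnfsf8 with 4 and Tnfsf9 with 1. The 12 housekeeping genes had 16 regions, none of them Bcl11b-KO-only (0%, with an upper bound of 19.4%).

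**Figure D5:**
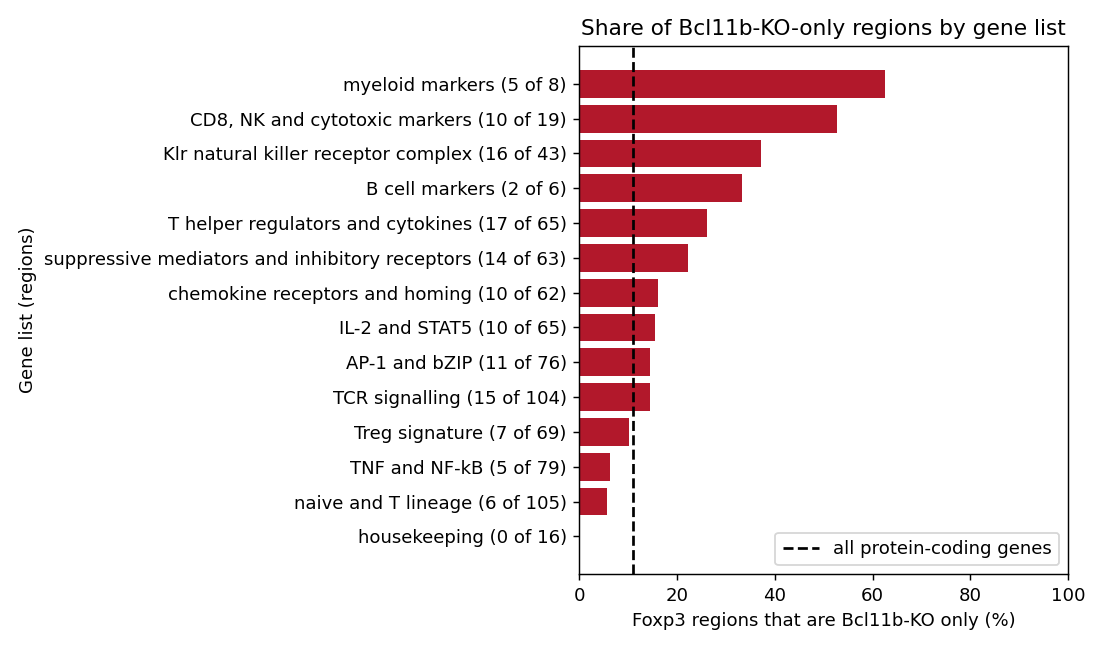
Share of a list's Foxp3 regions that are Bcl11b-KO-only (x axis, percent, bars from 0), with the counts in brackets; the dashed line is the 10.9% over all protein-coding genes, and neural genes, with no region, are not drawn. Myeloid markers (5 of 8) and CD8, NK and cytotoxic markers (10 of 19) have the highest shares on few regions, and naive and T-lineage genes (6 of 105) and housekeeping genes (0 of 16) the lowest.

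Some of the regions lay in small groups along a chromosome. With gaps of up to 20 kb, 600 of the 1943 (30.9%) fell into 258 clusters, 191 of 2 regions, 54 of 3, 9 of 4 and 4 of 5. Clusters were not counted for the other classes, so whether this share is unusual is not known. The 4 clusters of 5 lay at Klrg1 and M6pr (chr6:122268920-122302972), at the integrin genes Itgax and Itgad (chr7:128158735-128195271), at Litaf (chr16:10976088-11014671), and at Tbx21 and Tbkbp1 (chr11:97104177-97143448). Their spans were 34.1, 36.5, 38.6 and 39.3 kb, and none held a Bcl11b region of any list. Between the 5 regions stood 3 wild-type Foxp3 regions at Klrg1, 1 at Itgax and Itgad, 2 at Litaf and 3 at Tbx21. The next cluster, of 4 regions in 13.6 kb, lay at Nosip and Rcn3 (chr7:45069775-45083423).

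Among the 514 genes with no assigned wild-type Foxp3 region, 74 had 2 or more Bcl11b-KO-only regions. Besides Trp73, Batf3, Itgam and Gzmk, these include signalling genes of NK and myeloid cells, named here after their values were seen. Sh2d1b1, which encodes the adaptor EAT-2 of NK-cell SLAM receptors, had 3, at -0.192, -3.86 and -6.38 kb from the start site, the nearest wild-type Foxp3 region being 55.3 kb away. Clnk, an adaptor related to SLP-76, had 3, at -0.215, 11.8 and 18.9 kb from the start, and the nearest wild-type Foxp3 region was 296 kb away. Cd300a, an inhibitory receptor, had 3, at 0.651, 8.25 and -7.05 kb from its start, the nearest wild-type region being 6.17 kb away.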

How the data were processed

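The deposited files are lists of regions (chromosome, start, end) that the authors made for pairs of groups, each pair divided into common and specific regions; they hold positions and no scores or counts, per the file headers and rows. The submitters' processing notes name the build mm10 and, with no roles, HISAT2 2.1.0, HOMER 4.10.1, SAMtools 1.3, cutadapt 1.12, Trim Galore 0.4.2, deepTools and FastQC. How peaks were thresholded, how specific regions were chosen and whether libraries were pooled is not given in the sources used here. Rows repeated within a list were counted once. From the lists, Python 3.11.15 with pandas 2.3.3 and scipy 1.17.1 matched regions by identical coordinates, assigned each to the nearest of 21900 RefSeq protein-coding genes (GRCm38.p6) within 100 kb, and measured distances from the region's centre. Shares were compared with two-sided Fisher's exact tests, with conditional odds ratios, exact 95% intervals and Benjamini-Hochberg adjustment over 27 tests at 0.05. Motifs were searched in RefSeq promoter windows, a choice made after the reference tables were seen, in place of the planned search of whole regions. The members and the 15 gene lists (272 genes) were chosen with earlier results of these data known. Named genes are 13 fixed ones, the 15 with the most regions (predicted genes passed over, ties by symbol), up to 5 of each list and those at the 5 largest clusters; others are said to be chosen after their values were seen. Assignment matched a plain search in 300 of 300 test regions. No condition was compared over samples, since no list gives values per library.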

Additional observations from a re-analysis of the deposited data

How the results depend on the processing

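The depth behind the regions is unknown, and the lists carry no values per library, so leaving out a replicate could not be done. No paired analysis was possible because the lists hold no columns per replicate. The planned search of whole regions for motifs, with its alternatives, was not run, as no genome of the build was used here. Every odds ratio against common and WT-specific regions for gene ends and start sites kept its direction and its call under the alternatives run. Against the other KO-specific regions the gene-end odds ratio was 0.686 at 0.5 kb (adjusted p = 0.0788), 0.733 among regions of 276 bp (adjusted p = 0.377) and 1.45 among the 51 wider ones (adjusted p = 0.377), and the start-site odds ratio was 0.797 among regions of 276 bp (adjusted p = 0.556, Fisher's exact tests here and below); the cause was not tested, and the last 3 rest on fewer regions. For the centre inside a gene, which passed no test, the odds ratio changed side with any annotated gene (1.00) and at 276 bp (1.07) against the other KO-specific regions, and at 276 bp against WT-specific regions (1.02). Counted only from bases inside the region where 150 or more overlap, which leaves 54 windows, AP-1 against common windows had an odds ratio of 3.15 (adjusted p = 0.0607) and STAT 3.99 (adjusted p = 0.00757, exact tests), and forkhead had 0 against both classes. In these windows AP-1 against WT-specific and Runx against both classes kept their calls. NF-kB had 0 against both classes there and in the central 150 bases. Among windows without a GC box, STAT against WT-specific had 2.54 (adjusted p = 0.0653, exact test), Ets 1.17 and E-box 0.666. The number of Bcl11b-KO-only regions was 1796 without those that have a region of another list within 500 bp, 1926 on autosomes and 2308 with only this comparison's lists. Counts at single genes moved by over 1.5 times in 19 pairs of a gene and a setting of the assignment or the 500 bp rule, among them Gzmb, with none within 10 kb of the gene.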

Other observations

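The X chromosome held 17 of the Bcl11b-KO-only regions (0.875%), against 217 of the common regions (2.06%) and 124 of the WT-specific ones (2.58%). Of the 365 other KO-specific regions it held 1 (0.274%), so a low share was not particular to the Bcl11b-KO-only class. These shares were not tested. Of the 17 Bcl11b-KO-only regions, 1 was assigned to Cxcr3, the chemokine receptor of type 1 effector cells, and none to Foxp3.

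A cluster of 4 Bcl11b-KO-only regions lay at the olfactory receptor genes Olfr530 and Olfr60 (chr7:140355050-140377274, 22.2 kb), with no wild-type Foxp3 and no Bcl11b region between them. Olfactory receptors act in the nose, and the regions carry the name of these genes only as their nearest ones. The cluster was picked after its values were seen.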
